A study of Drosophila melanogaster with 3 samples.

Results

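Genes of protein synthesis were compared between 3 RNA-seq libraries of the Drosophila eye-antennal disc (EAD), the larval epithelium that forms the eye and antenna. The set holds the genes of the deposited expression table whose symbol starts with Aats- (aminoacyl-tRNA synthetases), eIF (translation initiation factors) or Ef1 (subunits of elongation factor 1), 54 of 15603 genes in all. It comprises 15 cytosolic synthetases, 6 mitochondrial synthetases, 29 initiation factors and 4 elongation factor genes. The first library is the tumor, GFP+ cells of RasV12; scrib-/- discs. These discs carry mosaic clones made with ey-flp recombinase, in which clone cells are homozygous for the *scrib2* allele on the Frt82B arm, lose the Gal80 repressor (tubGal80) and express UAS-RasV12 and UAS-GFP from an actin-Gal4 cassette that flp also activates, on a y,w background. The second library is the tumor microenvironment (TME), the GFP- cells of discs of the same genotype, which can be any cell outside the labeled clones. The third is the control, GFP+ cells of GMRGFP discs, without RasV12 or a scrib allele in the label. The GMR enhancer is active behind the morphogenetic furrow, where photoreceptors and other retinal cells differentiate. By its label the control would thus be sorted retinal cells rather than the normal counterpart of every tumor cell. Each library came from 50 pooled discs of wandering larvae at Day 6, all given as batch 1, and the column headings date the tumor and TME columns but not the control.

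With 1 library per condition there is no replicate check of any difference. The unit is FPKM, a fragment count adjusted for transcript length and library size, so levels of genes of different length can be set side by side. Read counts were estimated from the steps in which low FPKM values move, which gave 1845963 (tumor), 10856700 (TME) and 1757659 fragments (control). A transcript of 2000 nt at 5 FPKM then has about 17.0 (tumor), 102 (TME) and 16.5 fragments (control). Each ratio is given with an exact 95% Clopper-Pearson interval from these estimated fragments, and the interval holds counting error alone. To be called higher, a gene needed over 5 FPKM in the higher of the libraries compared and at least 2 times the FPKM of the other. In bulk RNA, fewer cells of a type and less RNA per cell cannot be told apart. *Ras85D*, whose activated form the clones carry, stood at 327 (tumor), 118 (TME) and 139 FPKM (control). All 6 eye disc markers were above 10 FPKM in every library, and their summed FPKM was 313 (tumor), 284 (TME) and 193 (control). Each of them was lowest in the control, where hemocyte markers summed to 337 FPKM, neuronal markers to 282 and fat body markers to 50.9.

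A synthetase attaches one amino acid to its tRNA, and the charged tRNA is then carried to the ribosome by elongation factor 1. Initiation factors prepare the small ribosomal subunit, deliver the initiator tRNA, bind the mRNA cap and unwind the mRNA so that the start codon is found. The TOR kinase acts on the cap-binding step and stress kinases act on eIF2, and both are known points of control of protein synthesis. Of the 54 genes, 47 were over 5 FPKM in at least 1 library, 7 stayed under it in all 3, and 3 were among the 100 most abundant genes of the table. They lie on every major chromosome arm, 5 on 2L, 12 on 2R, 13 on 3L, 15 on 3R, 8 on X and 1 on chromosome 4.

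In the tumor library, most genes of the set were above their level in both other libraries. The tumor value was the highest of the 3 for 38 of the 47 genes over 5 FPKM, against 40.1% of all genes tested in the same way. Against the control, 40 of 47 were higher by any size (48.8% of all genes), 25 by at least 1.5 times (23.7% of all genes) and 9 by at least 2 times (12.4% of all genes), and 2 were at least 2 times lower (20.2% of all genes). The share of all genes above the control depended on level. It was 40.6% for a mean under 20 FPKM and 54.2% to 65.8% in the classes from 20 FPKM up. For the members it was 4 of 8 under 20 FPKM and 81.8% to 100% in the higher classes. Against the TME, 41 of 47 were higher by any size (61.7% of all genes), 19 by at least 1.5 times (19.6%) and 4 by at least 2 times (6.53%), and 1 was at least 2 times lower (8.72%). The 2 comparisons share the tumor library. Between the TME and the control, 32 of 47 were higher in the TME (42.5% of all genes), 1 by at least 1.5 times (14.5%) and none by at least 2 times (6.39%), while 2 were at least 2 times lower (15.3%).

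The median difference of log2 (FPKM + 1) over the 47 genes was 0.57 for tumor over control, where the median of all genes was -0.02. By level, the median of all genes in tumor over control was -0.23 under a mean of 20 FPKM and 0.06 to 0.31 in the higher classes. The members had 0.16 and 0.39 to 0.91. For the 47 genes the median difference was 0.47 for tumor over TME, where all genes had 0.15, and 0.06 for TME over control, where all genes had -0.12. Most of these differences were larger than counting error, with intervals above 1 for 37 genes, below 1 for 4 and across 1 for 6 in tumor over control. In tumor over TME, 38 intervals lay above 1, 5 below and 4 across it. These are intervals of unscaled ratios, and no count over all genes stands beside them. The comparison with the TME depended more on scaling than that with the control. Scaling by the median ratio of all genes lowered every tumor over TME log2 ratio by 0.18, and scaling by the upper quartile lowered it by 0.29, against 0.08 and 0.14 for tumor over control. With the upper quartile, 35 of the 47 genes (74.5%) stayed above the TME in place of 41 (87.2%). The share of all genes above the TME went from 61.7% to 40.5%. The 6 members that crossed to below the TME were *Ef1alpha48D*, *Ef1gamma*, *eIF3-S8*, *eIF-4E*, *eIF4G2* and *Aats-pro*. In TME over control the count above 1 went up from 32 (68.1%) to 37 (78.7%) with the median ratio and 40 (85.1%) with the upper quartile. The share of all genes went from 42.5% to 45.8% and 51.2%. Calls at 2 times were also sensitive to scaling, with 2 to 4 higher members in place of 9 against the control and 1 in place of 4 against the TME, and the cytosolic synthetases called went from 7 to between 1 and 3 and from 3 to 1. Of all genes, 783 to 853 of 7985 were then called against the control, in place of 987. Against the TME it was 282 to 398 of 7294, in place of 476. The share of members called was thus below that of all genes under each scaling.

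**Figure D1:**
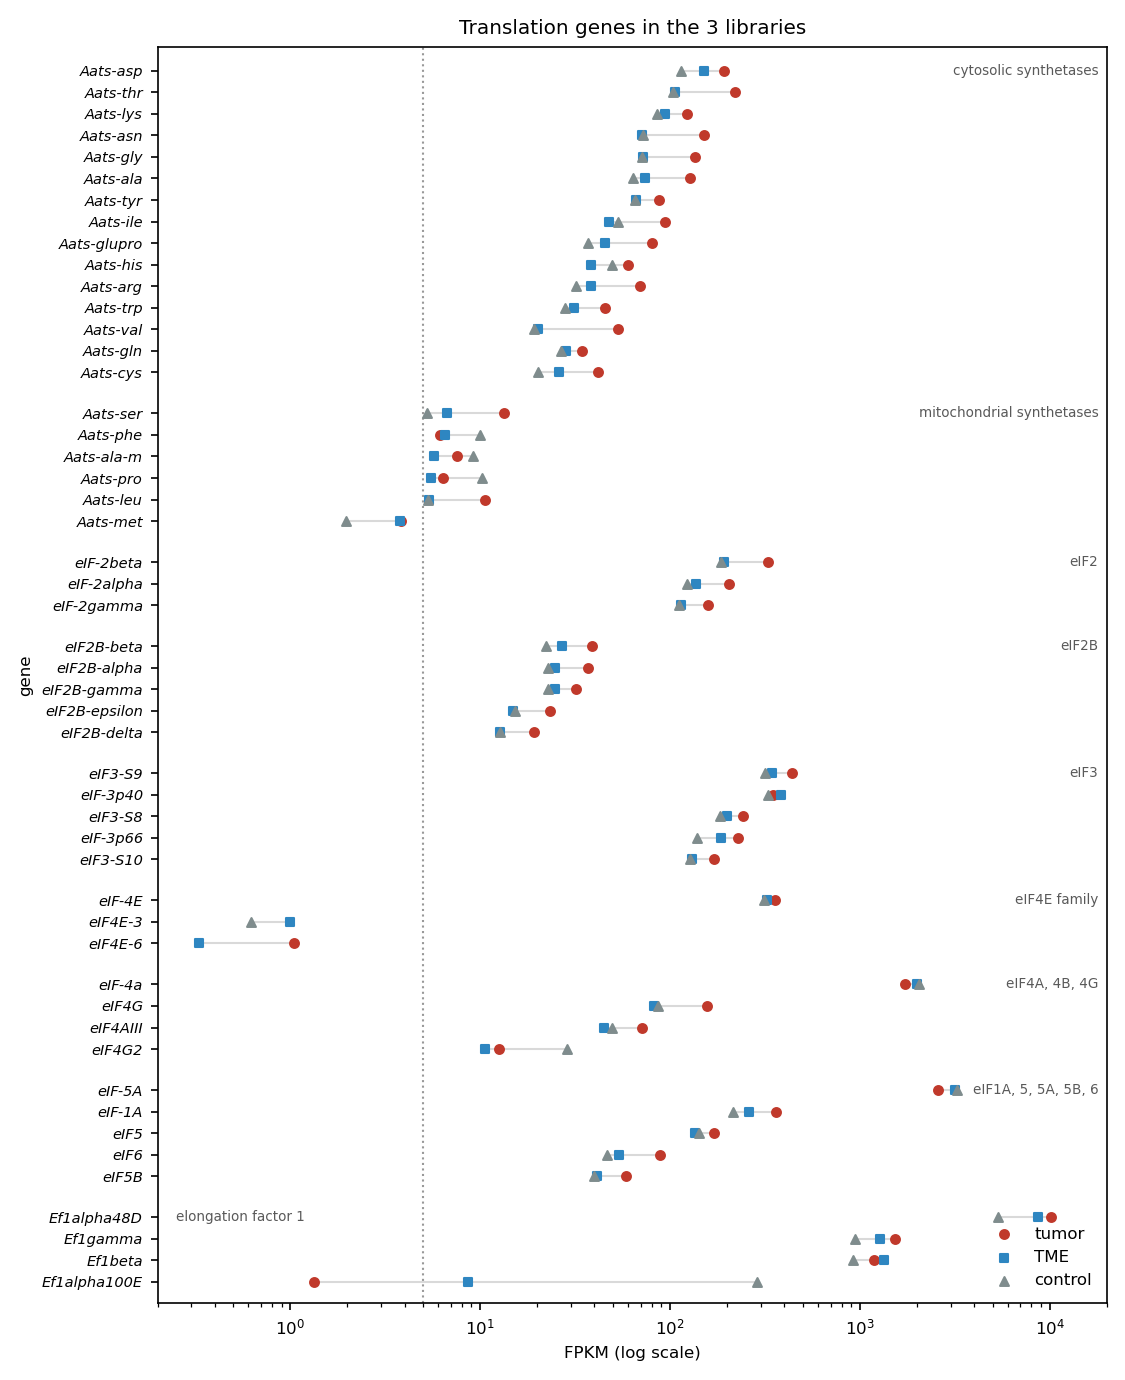
FPKM on a log axis of each gene of the set that is above 0 in at least 1 library, grouped by role, with circles for the tumor, squares for the TME, triangles for the control and a dotted line at 5 FPKM. All 15 cytosolic synthetases have the tumor at the right, eIF-4a and eIF-5A have it at the left, and Ef1alpha100E runs from 1.34 FPKM in the tumor to 287 in the control.

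The cytosolic synthetases were higher in the tumor without exception. All 15 had their highest value in the tumor, and their summed FPKM was 1514 (tumor), 908 (TME) and 842 (control). Ratios of tumor over control ran from 1.22 to 2.76 with a median log2 difference of 0.91. At least 2 times higher were 7 of the 15 (12.4% of all genes). Ratios of tumor over TME ran from 1.23 to 2.62 with a median of 0.79, and 3 of the 15 were at least 2 times higher (6.53% of all genes). With the upper quartile scaling, 1 of the 15 was called against each library, beside 783 of 7985 and 282 of 7294 of all genes. All 15 stayed above both other libraries under each of the 3 scalings tried. The margin over the TME was small for some genes, since the upper quartile scaling divides these ratios by 1.22 and *Aats-gln* was at 1.23. That factor also exceeded the lower interval bounds of *Aats-gln*, *Aats-asp*, *Aats-tyr*, *Aats-lys* and *Aats-trp*. Without scaling, the intervals lay above 1 for 14 of 15 genes in tumor over control and for all 15 in tumor over TME. Between the TME and the control the same genes were close to each other, with ratios from 0.778 to 1.31, a median of 0.08 and 10 of 15 intervals across 1.

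*Aats-val*, which charges the valine tRNA, had the largest ratio of the group in both tumor comparisons. It was at 53.1 (tumor), 20.3 (TME) and 19.3 FPKM (control), 2.76 times the control (95% interval 2.21 to 3.47) and 2.62 times the TME (2.28 to 3.00). The TME and control values were nearly the same, and the tumor value lay far above both. *Aats-thr*, for threonine, was at 219, 106 and 103 FPKM in the tumor, TME and control, 2.12 times the control (1.88 to 2.39) and 2.07 times the TME (1.91 to 2.24). *Aats-asn*, for asparagine, was at 150, 71.1 and 72.2 FPKM, 2.08 times the control (1.78 to 2.43) and 2.11 times the TME (1.90 to 2.34). In these 3 genes the lower pair of libraries differed by less than counting error, and they are the cytosolic synthetases called higher in both tumor comparisons.

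Another 4 cytosolic synthetases were called higher against the control but not against the TME. *Aats-glupro*, which encodes one protein that charges both glutamate and proline tRNAs, was at 80.6 (tumor), 45.4 (TME) and 36.9 FPKM (control), 2.18 times the control (1.84 to 2.60). *Aats-arg*, for arginine, was at 69.3, 38.3 and 32.0 FPKM, 2.17 times the control (1.73 to 2.73). *Aats-cys*, for cysteine, was at 41.6, 26.1 and 20.2 FPKM, 2.06 times the control (1.57 to 2.69). Here the TME lay a little above the control, which leaves a smaller step from the TME to the tumor. *Aats-ala*, for alanine, was at 128, 73.6 and 63.7 FPKM and only just passed the rule, at 2.00 times the control (1.76 to 2.29). *Aats-gly* (135, 71.6 and 71.3 FPKM) and *Aats-ile* (94.1, 47.5 and 53.3 FPKM), for glycine and isoleucine, were just short of it in both comparisons, between 1.77 and 1.98 times.

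The smallest ratios to the control belonged to the enzymes for histidine and glutamine, and the smallest to the TME to those for glutamine and aspartate. *Aats-his* was at 60.3 (tumor), 38.4 (TME) and 49.3 FPKM (control), and its ratio to the control, 1.22 (0.985 to 1.51), was the only one of the 15 with an interval across 1. It was also the cytosolic synthetase with the lowest TME over control ratio, 0.778 (0.654 to 0.926). *Aats-gln* was at 34.5, 28.2 and 26.6 FPKM, 1.30 times the control (1.00 to 1.67) and 1.23 times the TME (1.02 to 1.47). *Aats-asp*, the most abundant of the group over the 3 libraries, stepped down from 192 FPKM in the tumor to 150 in the TME and 115 in the control, with a TME over control ratio of 1.31 (1.17 to 1.46). *Aats-tyr* (87.8, 65.9 and 65.2 FPKM), *Aats-lys* (123, 94.0 and 85.7 FPKM) and *Aats-trp* (45.2, 31.3 and 28.0 FPKM) were also below 2 in both comparisons. *Aats-asp* and *Aats-gln* overlap genes on the other strand, *Nmda1* (63.0, 76.9 and 117 FPKM) and *CG11858* (66.6, 73.0 and 48.5 FPKM), and no strand setting of the fragment assignment is stated. On the same strand, *Aats-his* overlaps *Bx* (8.42, 9.31 and 15.4 FPKM) and *Aats-asp* overlaps the RNA gene *asRNA:CR43468* (8.57, 16.2 and 12.6 FPKM). The part of these overlaps in the ratios was not tested.

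The symbol rule misses 5 cytosolic synthetase genes that the table lists under other symbols, and all 5 were highest in the tumor as well. *CG33123*, the leucyl-tRNA synthetase, was at 76.8 (tumor), 30.8 (TME) and 32.9 FPKM (control), 2.34 times the control (1.99 to 2.76). *CG17259*, the seryl enzyme, was at 124, 66.5 and 60.1 FPKM, and *CG15100*, the methionyl enzyme, at 45.9, 24.6 and 26.9 FPKM. The alpha and beta chains of the phenylalanyl enzyme, *CG2263* (64.5, 39.4 and 28.2 FPKM) and *CG5706* (61.2, 44.3 and 32.8 FPKM), had the TME between the other 2 libraries. With these genes, 20 of 20 cytosolic synthetase genes had their highest FPKM in the tumor (40.1% of all genes). Called higher were 10 of 20 against the control (12.4% of all genes) and 4 of 20 against the TME (6.53%). The 5 genes under other symbols were looked up after the values of the others had been seen.

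**Figure D2:**
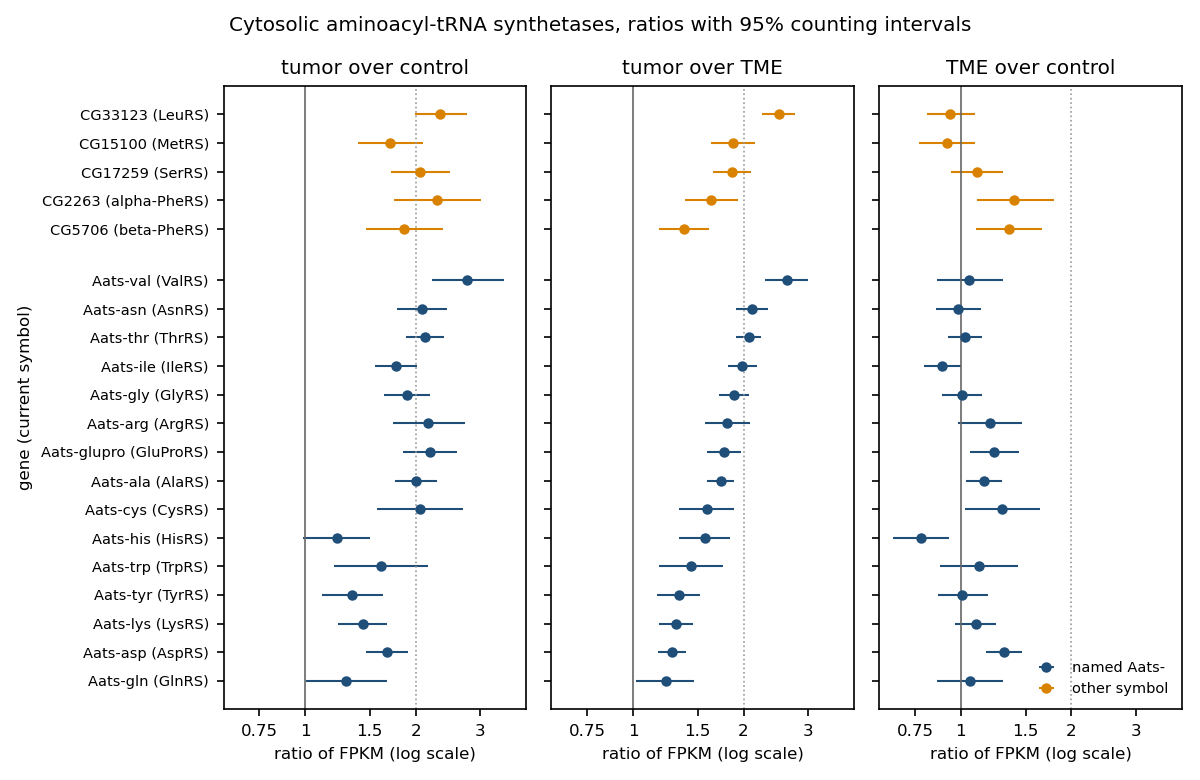
Ratio of FPKM on a log axis for the 15 cytosolic synthetases named Aats- and the 5 listed under other symbols, with the exact 95% counting interval as a bar in a panel per pair of libraries, where the solid line marks a ratio of 1 and the dotted line a ratio of 2. All points of the tumor panels lie at 1.22 or above. In the last panel the 15 Aats- genes lie between 0.778 and 1.31 and the 5 others between 0.914 and 1.40.

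The mitochondrial synthetases, which charge tRNAs inside the organelle, were less uniform. Of 6 such genes, 5 were over 5 FPKM in at least 1 library, at levels between 5.25 and 13.4 FPKM, and 2 of the 5 were highest in the tumor, about the 40.1% of all genes. Against the TME, 4 of the 5 were higher by any size (61.7% of all genes). With the upper quartile scaling it was 3 of 5 (40.5% of all genes). *Aats-ser* was at 13.4 (tumor), 6.65 (TME) and 5.25 FPKM (control), 2.56 times the control (1.35 to 5.72) and 2.02 times the TME (1.32 to 3.03). *Aats-leu* was at 10.6, 5.40 and 5.29 FPKM, 2.01 times the control (1.24 to 3.29) and 1.97 times the TME (1.43 to 2.68). Both passed the rule against the control on few fragments, about 12.5 for *Aats-ser* and 26.9 for *Aats-leu* in that library.

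The other 3 mitochondrial members over 5 FPKM were highest in the control. *Aats-phe* had the lowest ratio of the group in both tumor comparisons, at 6.12 (tumor), 6.54 (TME) and 10.01 FPKM (control), 0.612 times the control (0.287 to 1.16). *Aats-pro* was at 6.41, 5.50 and 10.2 FPKM and *Aats-ala-m* at 7.59, 5.73 and 9.13 FPKM. Their intervals in tumor over control all held 1, so no order between those 2 libraries was resolved at this depth. *Aats-met*, the mitochondrial methionyl enzyme, stayed under 5 FPKM at 3.82, 3.77 and 1.96, with the control lowest. The median log2 difference over the 5 genes was -0.24 for tumor over control, 0.35 for tumor over TME and -0.55 for TME over control. Among 7 further mitochondrial synthetase genes under other symbols and over 5 FPKM, 4 were highest in the tumor.

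eIF2, the trimer that brings the initiator tRNA to the ribosome, and eIF2B, the factor that reloads it with GTP, were highest in the tumor for all of their 8 genes. *eIF-2beta* had the largest ratios of the trimer, at 328 (tumor), 193 (TME) and 185 FPKM (control), 1.77 times the control (1.55 to 2.04) and 1.70 times the TME (1.55 to 1.87). *eIF-2alpha*, the subunit that stress kinases phosphorylate, was at 204, 136 and 122 FPKM, 1.67 times the control (1.42 to 1.97). *eIF-2gamma*, the subunit that binds GTP, was at 158, 114 and 112 FPKM, 1.41 times the control (1.23 to 1.62) and 1.39 times the TME (1.26 to 1.53). None of the 3 reached 2 times, and the intervals of TME over control all held 1. On the same strand, *eIF-2gamma* overlaps *Su(var)3-9* (15.7, 11.8 and 10.9 FPKM). On the other strand, *eIF-2alpha* overlaps *rngo* (43.9, 34.2 and 37.7 FPKM) and *eIF-2beta* overlaps *ver* (17.2, 10.2 and 8.57 FPKM). The part of these overlaps in the ratios was not tested.

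The 5 subunits of eIF2B had lower levels and similar ratios. The largest ratio to the control was that of *eIF2B-beta*, at 38.6 (tumor), 26.9 (TME) and 22.2 FPKM (control), 1.74 times the control (1.20 to 2.53). The largest ratio to the TME was that of *eIF2B-epsilon*, the catalytic subunit, at 23.2, 14.95 and 15.3 FPKM, 1.55 times the TME (1.23 to 1.97). The smallest in both was *eIF2B-gamma*, at 32.0, 24.8 and 22.8 FPKM, 1.41 times the control (0.989 to 2.01). *eIF2B-alpha* (37.1, 24.7 and 22.6 FPKM) and *eIF2B-delta* (19.3, 12.7 and 12.8 FPKM) lay between them. The median log2 difference was 0.57 for tumor over control and 0.56 for tumor over TME, and each gene overlaps another gene on the opposite strand.

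eIF3, the largest initiation factor and the scaffold on the small subunit, depended on which subunit was read. The 5 genes of the set were above the control for 5 of 5, and above the TME for 4 of 5, or for 3 of 5 with the upper quartile scaling. Of all genes, 48.8% were above the control and 61.7% above the TME, or 40.5% with the upper quartile scaling. The largest ratio to the control was that of *eIF-3p66* (eIF3d1), at 229 (tumor), 186 (TME) and 139 FPKM (control), 1.65 times the control (1.46 to 1.85). *eIF3-S10* (eIF3a) had the largest ratio to the TME, at 171, 131 and 127 FPKM, 1.31 times the TME (1.23 to 1.40). *eIF3-S9* (eIF3b, 437, 346 and 316 FPKM) and *eIF3-S8* (eIF3c, 242, 200 and 184 FPKM) were between 1.21 and 1.38 times the other libraries, and *eIF3-S8* went below the TME with the upper quartile scaling. The subunit *eIF-3p40* (eIF3h), at 348, 384 and 327 FPKM, had the smallest ratios, 1.06 times the control (0.952 to 1.19) and 0.904 times the TME (0.832 to 0.982), and its ratio to the control went below 1 with the upper quartile scaling.

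Another 8 eIF3 subunits over 5 FPKM are listed under other symbols, and as a group they were centred near no difference. Their median log2 difference was 0.00 for tumor over control and -0.02 for tumor over TME, with 4 of 8 above 1 in each. Of all genes, 48.8% and 61.7% were above 1. *Int6* (eIF3e) was at 282 (tumor), 306 (TME) and 284 FPKM (control), and *CG8636* (eIF3g1) at 235, 233 and 232 FPKM. *CG9769* (eIF3f1), at 211, 283 and 228 FPKM, had the lowest ratio of tumor over TME, 0.745, and *Adam* (eIF3j), at 130, 102 and 102 FPKM, the highest, 1.28. The shortest transcripts of these 8 genes have a median length of 1264.5 nt, against 2481 nt for the 5 genes of the set, and over the 13 subunits the log2 difference went with length at a Spearman rho of 0.59 for tumor over control and 0.53 for tumor over TME (n = 13, all from the same libraries). The part of length in the difference between the subunits was not tested.

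The cap-binding complex joins eIF4E, which binds the cap, *eIF4G*, the scaffold, and eIF4A, the RNA helicase that unwinds the leader. These partners differed in direction. *eIF4G* was at 156 (tumor), 81.9 (TME) and 86.6 FPKM (control), 1.80 times the control (1.65 to 1.96) and 1.90 times the TME (1.80 to 2.02), the largest ratios among the eIF4A, eIF4B and *eIF4G* genes. *eIF-4E* was at 357, 323 and 314 FPKM, 1.14 times the control (1.02 to 1.28) and 1.10 times the TME (1.02 to 1.20), a difference from the TME that went below 1 with the median ratio and upper quartile scalings. *eIF-4a*, one of the 5 most abundant genes of the set, had its lowest value in the tumor, at 1736, 2003 and 2050 FPKM, 0.847 times the control (0.813 to 0.881) and 0.866 times the TME (0.840 to 0.894). The FPKM of *eIF-4a* was thus 11.1 times that of *eIF4G* in the tumor, 24.5 times in the TME and 23.7 times in the control. *eIF4AIII*, a relative of eIF4A in the exon junction complex, was at 71.5, 45.1 and 49.6 FPKM and had the tumor highest, as *eIF4G* had.

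*eIF4G2*, a second *eIF4G* gene required in the testis for meiosis, differed from *eIF4G* in having its highest value in the control. It was at 12.5 (tumor), 10.6 (TME) and 28.6 FPKM (control), 0.438 times the control in the tumor (0.361 to 0.527) and 0.371 times in the TME (0.327 to 0.421), so it was called lower in both. The tumor and TME values were closer to each other, with a ratio of 1.18 (0.992 to 1.40) that went below 1 with the upper quartile scaling. Its FPKM equalled 33.0% of that of *eIF4G* in the control, 8.05% in the tumor and 13.0% in the TME. The summed FPKM of the germ line markers *bam*, *vas* and *nos* was 4.60 (tumor), 3.42 (TME) and 6.62 (control), with *vas*, a defining marker, listed at 0 in the control. *CG33111*, which overlaps *eIF4G2* on the same strand, was nearly flat at 37.4, 33.6 and 37.3 FPKM.

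The other genes of the cap-binding group were at or near 0. *eIF-4B*, which stimulates the helicase, and the cap-binding paralogs *eIF4E-4*, *eIF4E-5* and *eIF4E-7* are listed at 0 in all 3 libraries. A listed 0 can be a failed estimate, because *RpL15*, a ribosomal protein gene of every cell, is also listed at 0 throughout. *eIF4E-3*, a paralog with a role in the testis, was listed at 0 in the tumor, then at 0.994 (TME) and 0.622 FPKM (control). *eIF4E-6* was at 1.04 (tumor), 0.330 (TME) and 0 (control). Each of these low values stands for 10 fragments or fewer, and no ratio is given for them.

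Among the remaining initiation factors, 4 of 5 were highest in the tumor and *eIF-5A* was lowest there. *eIF6*, which keeps the large ribosomal subunit from joining too early, had the largest ratios, at 88.4 (tumor), 53.9 (TME) and 46.5 FPKM (control), 1.90 times the control (1.43 to 2.54) and 1.64 times the TME (1.36 to 1.97). *eIF-1A*, which acts in scanning, was at 360, 262 and 214 FPKM, 1.69 times the control (1.48 to 1.91). *eIF5B*, which joins the subunits, was at 58.7, 41.4 and 39.6 FPKM, and *eIF5*, which triggers GTP hydrolysis on eIF2, was at 170, 135 and 141 FPKM. *eIF-5A*, the hypusine-carrying factor now placed in elongation, had the smallest ratios, at 2585 (tumor), 3181 (TME) and 3262 FPKM (control), 0.793 times the control (0.754 to 0.833) and 0.813 times the TME (0.781 to 0.845). It is the second most abundant gene of the set, and with *eIF-4a* it outweighed the other factors in sum, so that the summed FPKM of all 29 initiation factors was 7863 (tumor), 7932 (TME) and 7840 (control) although 19 of 23 over 5 FPKM were highest in the tumor.

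Elongation factor 1 delivers the charged tRNA to the ribosome, with alpha as the carrier and beta and gamma as its exchange complex. *Ef1alpha48D*, the second most abundant gene of the whole table, was at 10141 (tumor), 8634 (TME) and 5344 FPKM (control). This was 1.90 times the control in the tumor (1.86 to 1.93) and 1.62 times in the TME (1.59 to 1.64), and the tumor exceeded the TME by 1.17 times (1.16 to 1.19), a difference that crossed below 1 with the upper quartile scaling. *Ef1gamma* was at 1525, 1283 and 944 FPKM, 1.61 times the control (1.54 to 1.70) and 1.19 times the TME (1.15 to 1.23), the latter below 1 with the upper quartile scaling. *Ef1beta* was at 1180, 1336 and 915 FPKM, 1.29 times the control (1.19 to 1.39) and 0.883 times the TME (0.834 to 0.933). In these 3 genes the TME stood with the tumor, above the control, with TME over control ratios of 1.36 to 1.62. The 15 cytosolic synthetases named Aats- had 0.778 to 1.31, and the 5 under other symbols 0.914 to 1.40. The median of the 3 genes with *Ef1alpha100E* for tumor over TME, 0.03, turned negative under all 3 scalings. eEF2 (*Ef2b*), which moves the ribosome along, was at 2596, 2130 and 1664 FPKM.

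*Ef1alpha100E*, the second elongation factor 1 alpha gene, was the only member over 5 FPKM that differed between libraries by more than 3 times. It was at 1.34 (tumor), 8.65 (TME) and 287 FPKM (control), from about 6.01, 232.5 and 1244 fragments. The tumor value was 0.00466 times the control (0.00171 to 0.0102) and 0.155 times the TME (0.0560 to 0.341), and the TME value 0.0301 times the control (0.0261 to 0.0348). Relative to *Ef1alpha48D*, its FPKM was 0.0132% (tumor), 0.1002% (TME) and 5.37% (control). In mammals, the second eEF1A gene takes over from the first in mature neurons and muscle.

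The summed neuronal markers had the same order of libraries as *Ef1alpha100E*, and so did the summed hemocyte, fat body and muscle markers. Of 7 listed, 6 were found, and their summed FPKM was 15.9 (tumor), 20.5 (TME) and 282 (control), with none at 0. All 6 were at least 2 times higher in the control than in either other library, among them the pan-neuronal *elav* at 6.79, 7.90 and 57.3 FPKM and the synaptic *n-syb* at 1.32, 2.65 and 54.0 FPKM. Other cell types were also unequal: the 6 hemocyte markers found summed to 30.4 (tumor), 321 (TME) and 337 (control), and the 4 fat body markers to 0.253, 1.40 and 50.9 FPKM, with 3 of 4 at 0 in the tumor. The 3 glia markers summed to 27.9, 25.4 and 52.8 FPKM and the 5 muscle markers to 36.9, 60.3 and 64.0 FPKM. Single markers of these 2 lists differed in direction. *Mlc2* (16.3, 12.2 and 7.09 FPKM), *sls* (12.1, 7.11 and 3.36 FPKM) and *Mhc* (4.42, 3.51 and 1.29 FPKM) were highest in the tumor, and *Act57B* and *twi* were lowest there. Of the glia markers, *moody* (20.6, 9.69 and 9.89 FPKM) was highest in the tumor, and *gcm* and *repo* in the control. The part of these cell types in the levels of *Ef1alpha100E* and *eIF4G2*, or of the synthetases, was not tested.

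**Figure D3:**
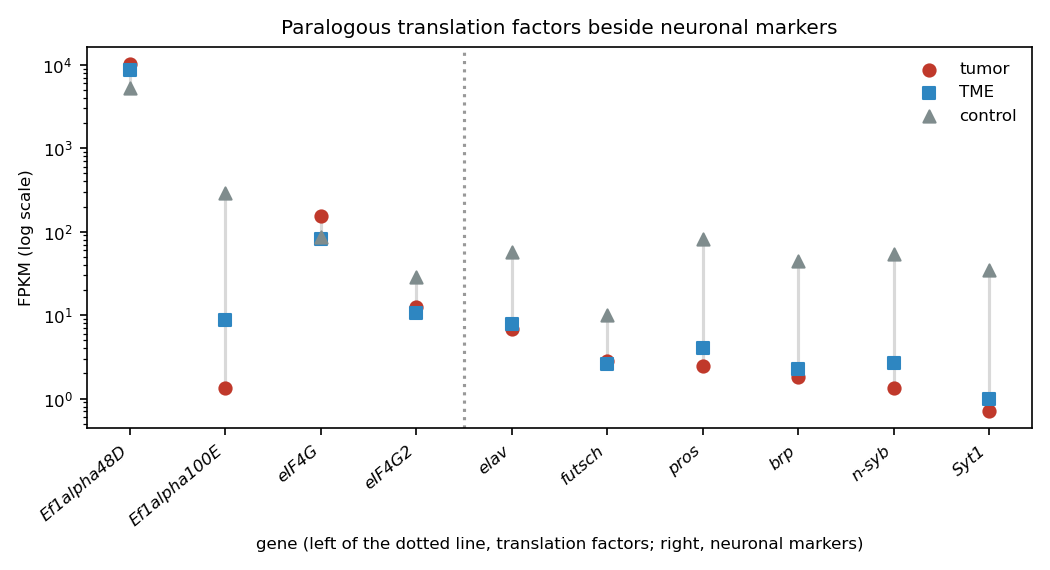
FPKM on a log axis in the tumor (circles), TME (squares) and control (triangles) for the paralog pairs Ef1alpha48D with Ef1alpha100E and eIF4G with eIF4G2, and for the 6 neuronal markers to the right of the dotted line. Ef1alpha100E spans 1.34 to 287 FPKM and elav 6.79 to 57.3 FPKM with the control on top, while Ef1alpha48D and eIF4G have the tumor on top.

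All 54 genes together took 3.45% of the summed FPKM of the tumor, 2.99% of the TME and 2.61% of the control. *Ef1alpha48D* alone was 1.57%, 1.28% and 0.860%, and without it the shares were 1.88%, 1.71% and 1.75%. The tumor share was thus still the highest without *Ef1alpha48D*, and the TME then lay below the control. The cytosolic synthetases took 0.235%, 0.135% and 0.136%.

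Lists of other protein synthesis genes gave a reference for the set. The cytosolic ribosomal proteins, which form the ribosome itself, had a median log2 difference of -0.03 for tumor over control and -0.21 for tumor over TME, and 8 of 86 were highest in the tumor. Mitochondrial ribosomal proteins had medians of 0.45 and 0.17, the latter going below 0 with the median ratio and upper quartile scalings, to -0.10 in the second. Proteasome subunits, a complex outside translation, had medians of 0.47 and 0.35, and 20 of 21 were highest in the tumor. The proteasome medians were thus close to the 0.57 and 0.47 of the whole set, and those of the cytosolic ribosomal proteins were lower than both. Most cytosolic ribosomal protein genes have a shortest transcript under 1000 nt. In that length class their median was -0.04 for tumor over control, where all genes had -0.16. For tumor over TME it was -0.24, where all genes had -0.13.

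Of 31 other genes of translation and its control, 2 were called higher in the tumor against the control, 1 against the TME and none lower, below the 12.4% and 6.53% of all genes called higher, with median log2 differences of 0.23 and 0.28. *Thor*, the 4E-BP that binds eIF4E and blocks the cap complex, was at 353 (tumor), 197 (TME) and 140 FPKM (control), 2.52 times the control. The mitochondrial elongation factor *CG12736* (mEFTu2) was at 10.9, 10.2 and 5.06 FPKM, 2.14 times the control. *S6k*, the ribosomal protein S6 kinase downstream of TOR, was at 64.8, 30.2 and 33.7 FPKM, 2.15 times the TME. *crc*, the Drosophila ATF4 that is translated when eIF2 is phosphorylated, was at 846, 624 and 502 FPKM, 1.69 times the control. The poly(A)-binding protein gene *pAbp*, a partner of *eIF4G*, was at 741, 535 and 483 FPKM.

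**Figure D4:**
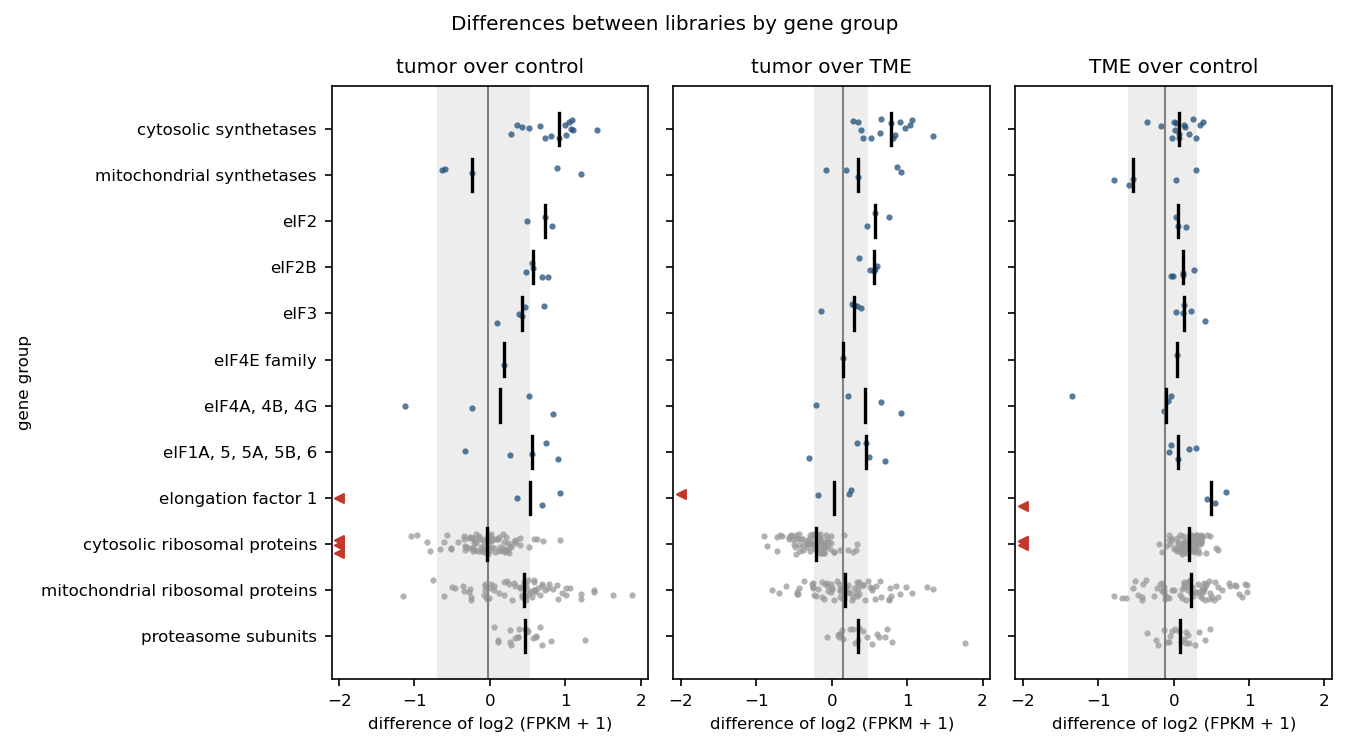
Difference of log2 (FPKM + 1) for each gene of the role groups (blue) and of 3 comparison lists (grey), with black bars at group medians, a vertical line at the median of all genes and a shaded band over the middle 50% of all genes. Arrowheads mark genes beyond -2. The cytosolic synthetase medians, 0.91 and 0.79, lie beyond the band in the tumor comparisons and near the line, at 0.08, in TME over control, while the elongation factor 1 median for tumor over TME, 0.03, turned negative under the scalings.

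Differences from the TME library went with transcript length over all genes. The median log2 difference of tumor over TME was -0.13 for genes whose shortest transcript is under 1000 nt, 0.10 for 1000 to 1500 nt, 0.15 for 1500 to 2000 nt, 0.23 for 2000 to 3000 nt and 0.32 for 3000 nt and over. In TME over control the medians ran the other way, from 0.02 to -0.36, and in tumor over control they lay between -0.16 and 0.08 with no steady trend. Ribosomal protein genes and *eIF-5A* are short and most synthetase genes are long, with shortest transcripts of 1683 to 3820 nt, so length and role are partly joined in the set.

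Set against the median of their own length class, the cytosolic synthetases were above it for 15 of 15 genes in both tumor comparisons, with a median excess of 0.91 over the control and 0.48 over the TME. All members together were above it for 40 of 47 and 39 of 47 genes, with an excess of 0.59 and 0.32. The excess of eIF2 over the TME was 0.48 and that of eIF2B 0.37, whereas that of eIF3 was 0.07 with 3 of 5 above. In TME over control the members were above their class for 39 of 47 genes, with an excess of 0.20. Within the 15 cytosolic synthetases the ratio also went with length, at a Spearman rho of 0.50 for tumor over control and 0.55 for tumor over TME (n = 15, all from the same libraries). The part of length in these ratios beyond the class medians was not tested.

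**Figure D5:**
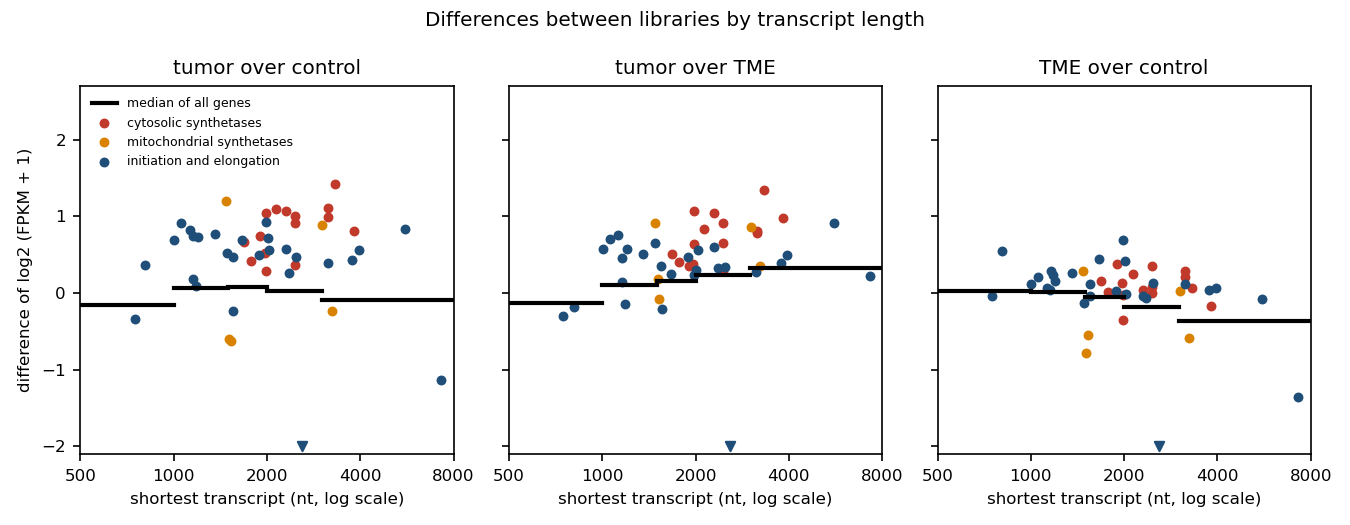
Difference of log2 (FPKM + 1) against the length of the shortest annotated transcript in nt (log axis) for the members over 5 FPKM, with black lines at the median of all genes in 5 length classes and an arrowhead for Ef1alpha100E beyond -2. The line climbs from -0.13 to 0.32 in tumor over TME and sinks to -0.36 in TME over control, and the cytosolic synthetases lie above it in both tumor panels.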

How the data were processed

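Discs were pooled and RNA was sequenced from sorted cells, with 1 library each for tumor, TME and control. Per the labels, RNA was extracted in Trizol, while the study's methods name Qiagen RNAmini kits. The authors prepared TruSeq libraries, ran them on a MiSeq, used the Tuxedo suite for mapping to the release their methods name, and deposited FPKM per gene. The suite's version, the annotation and any strand setting were not given in the sources used here. Columns were matched to samples by their headings, and 0 columns of per-sample values were left unmatched.

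From the deposited FPKM, ratios between libraries were computed without a count test, since there is no replicate. Genes over 5 FPKM in the higher library entered the comparisons, with calls at 2 and 1.5 times and medians of log2 (FPKM + 1). Depth was fitted to the steps of low FPKM of genes with 1 transcript of 400 to 4000 nt, where 78.4% to 79.9% of low values lay within 0.1 of whole fragments. Fragments of a gene use its shortest transcript in the Ensembl annotation of BDGP6 (release 115), which may differ from the authors' models. Of 15603 genes, 15443 were matched (99.0%), and of the members 50 by identifier and 4 by RefSeq synonym. A mitochondrial synthetase is one whose current symbol ends in -m, which put Aats-ser, Aats-leu, Aats-pro, Aats-phe and Aats-met in that group. Of the members, 23 overlap exons of another gene, 6 of them on the same strand and 18 on the opposite strand, and their values are less certain.

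The members and lists were chosen with earlier results of these data known. Named genes are all members past 2 times, the largest and smallest ratio per role group in the tumor comparisons, the 5 most abundant and all listed at 0; others are examples with all 3 values. The genes under other symbols, the length and level classes and the groups alone were added after the values were seen. Alternatives covered the ratio, the FPKM floor, the pseudocount, 3 scalings and genes at 0. The depth fit, the call at 2 times and the counting interval were checked on simulated counts. These used genes with 1 transcript and the same length model as the fit. The scalings, classes and medians were not checked in this way. Python 3.11.15 was used with pandas 2.3.3, numpy 2.4.6 and scipy 1.17.1, and figures were drawn in matplotlib 3.10.9.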

Additional observations from a re-analysis of the deposited data

How the results depend on the processing

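With 1 library per condition, no setting gives a spread between animals, and the low values of mitochondrial synthetases and eIF4E paralogs are limited by depth. The median log2 difference of the members kept its sign under each of 13 alternatives in every comparison. It ranged from 0.44 to 0.91 for tumor over control (main value 0.57) and from 0.19 to 0.79 for tumor over TME (0.47), where it was 0.29 with the median ratio and 0.19 with the upper quartile scaling. The upper values, 0.91 and 0.79, are those of the cytosolic synthetases alone, a choice made after seeing the data. For TME over control it ranged from 0.06 to 0.21. Counts of genes depended on the ratio asked and on scaling, which divides every tumor ratio by one factor between 1.06 and 1.22 so that ratios just over 2 drop out. For tumor over control, 9 higher members became 25 at 1.5 times, 0 at 3 times, 4 with the median ratio, 2 with the upper quartile and 4 with the total without the 100 most abundant genes. For tumor over TME, 4 became 19 at 1.5 times, 0 at 3 times and 1 under each of the 3 scalings. In both comparisons the share of members called at 2 times was below that of all genes under each scaling. For TME over control, 0 became 1 at 1.5 times, 1 without a floor and 1 with genes of such current names added after seeing the data. The 2 lower members against the control became 4 at 1.5 times, 1 at 3 times and 1 over 50 FPKM in the tumor, and 5, 1 and 1 in the TME. The 1 lower member of tumor over TME became 0 over 10 or 50 FPKM, since Ef1alpha100E is under those floors there, and 2 without a floor. None of these 3 medians changed sign. The elongation factor 1 median for tumor over TME did, from 0.03 to -0.16, -0.26 and -0.08 under the median ratio, upper quartile and total scalings, and with the upper quartile 6 members crossed below the TME and eIF-3p40 below the control.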
